A study of Mus musculus with 12 samples.

Results

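A set of 10 genes of inflammatory cytokine and inflammasome signalling was followed in the spinal cord of 7 months old mice of 4 genotypes. The genes are Il1a, Il1b, Il1rn, Il18, Tnf, Il6, Osm, Nlrp3, Pycard and Casp1 and were matched by symbol. Each matched 1 row, so that 10 of the 45906 genes of the count table are described. Whole-cord RNA was read out from strand-specific poly-A libraries, 1 library per mouse and 3 mice per genotype (12 libraries). Plekhg5+/+ mice carried intact Plekhg5 and no transgene and served as controls, and Plekhg5-/- mice lacked Plekhg5, an exchange factor that activates the small GTPase Rab26. Plekhg5+/+ SOD1-G93A mice carried intact Plekhg5 and a transgene for human SOD1 with the G93A mutation, which causes amyotrophic lateral sclerosis, in its slowly progressing low copy form. Plekhg5-/- SOD1-G93A mice combined both. The promoter of the transgene, the Plekhg5 allele and the sex of each mouse are not given in the sources used here.

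The interleukin-1 ligands, TNF, IL-6 and oncostatin M are secreted proteins that immune cells, in the central nervous system mostly microglia and invading myeloid cells, make after stimulation, and that act on receptors of neighbouring neurons, astrocytes and endothelial cells. IL-1β and IL-18 are made as inactive precursors. The inflammasome, in which the sensor NLRP3 recruits the adaptor ASC (encoded by Pycard) and the protease caspase-1, cleaves them. The IL-1 receptor antagonist (Il1rn) binds the same receptor as IL-1α and IL-1β without activating it, so that it limits their action. All values here are transcript levels, and neither cleavage nor secretion was measured.

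Each library held between 30415643 and 38743628 counts assigned to genes. Plekhg5 was at 19.4 to 25.0 CPM (counts of a gene scaled to a common library size) in the 6 Plekhg5+/+ libraries and at 3.28 to 4.72 CPM in the 6 Plekhg5-/- libraries, and human SOD1 at 4421 to 5638 CPM in the 6 transgenic libraries and at 0.153 to 5.47 CPM in the others. Replicate 1 of the Plekhg5+/+ SOD1-G93A mice stood apart from the other mice of its genotype, with a summed level of 12 microglial marker genes of 1835 CPM against 979 and 1044 CPM. It held the highest value of its genotype in 8 of the 9 genes that could be tested, with Il18 as the exception. For several of the genes, results are therefore also given without it. Transcripts of the Y chromosome were present in 3 of 3 Plekhg5+/+ libraries, 2 of 3 Plekhg5-/- libraries, 2 of 3 Plekhg5+/+ SOD1-G93A libraries and 1 of 3 Plekhg5-/- SOD1-G93A libraries, so that sex was not balanced between the genotypes.

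The promoters of 9 of the 10 genes, with 12 annotated transcription starts between them, were found in RefSeq (GRCm38.p6). Osm had no entry. The 250 bases before the start of 3 of them are shown because these genes span the outcomes described next: Il1rn, the gene with the largest change that passed the test; Tnf, whose estimate was nearly as large but did not pass; and Il6, which was barely detected. Capitals mark matches to TGANTCA, a form of the site bound by AP-1, and to TATAAA, the TATA box.
Il1rn, first start, chr2:24336610-24336859, plus strand: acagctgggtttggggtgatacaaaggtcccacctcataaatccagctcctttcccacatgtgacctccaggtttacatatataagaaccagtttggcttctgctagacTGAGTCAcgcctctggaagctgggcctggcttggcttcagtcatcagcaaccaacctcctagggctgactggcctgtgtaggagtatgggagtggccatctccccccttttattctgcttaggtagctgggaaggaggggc
Tnf, chr17:35202008-35202257, minus strand: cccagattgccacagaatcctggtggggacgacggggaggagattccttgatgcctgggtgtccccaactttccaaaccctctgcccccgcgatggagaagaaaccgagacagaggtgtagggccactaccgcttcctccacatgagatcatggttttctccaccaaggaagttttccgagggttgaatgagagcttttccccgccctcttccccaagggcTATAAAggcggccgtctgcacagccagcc
Il6, chr5:30012864-30013113, plus strand: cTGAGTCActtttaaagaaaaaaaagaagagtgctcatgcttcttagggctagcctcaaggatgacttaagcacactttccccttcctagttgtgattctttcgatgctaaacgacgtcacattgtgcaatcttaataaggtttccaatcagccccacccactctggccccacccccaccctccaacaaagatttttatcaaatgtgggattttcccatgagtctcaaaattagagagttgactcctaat
The letters TGANTCA, searched on both strands, occurred in 3 of the 12 promoters, against 6.75% of all 32851 RefSeq promoters of this length. These were promoters of Il1a, Il1rn and Il6, and in Il1rn the match began 141 bases before the start. TATAAA occurred in 4 of the 12, of Il1a, Il1b, Il18 and Tnf, against 12.4% of promoters. In Tnf it began 29 bases before the start. The letters GAGGAA, a form of the site bound by the myeloid factor PU.1, occurred in 5 of the 12, against 23.3% of promoters. These belonged to Il1a, Tnf, Nlrp3, Pycard and Casp1. The NF-kB consensus occurred in 2 of the 12, of Il6 and Nlrp3, against 7.25% of promoters. No pair of these matches overlapped within a promoter. These are matches of letters only, and binding was not measured.

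The 10 genes differed widely in level. Per kilobase of exon, Il18 was the highest in every genotype, at 10.8 ± 1.48 CPM per kb (SD, n = 3) in Plekhg5+/+ mice, followed there by Casp1 at 2.13 ± 0.166 and Pycard at 0.907 ± 0.197 CPM per kb. Il1a, Nlrp3 and Il1b formed a middle group at 0.289 ± 0.0310, 0.255 ± 0.101 and 0.241 ± 0.0672 CPM per kb, which did not differ among themselves beyond their spread. Osm, Il1rn, Tnf and Il6 were lowest, at 0.0784 ± 0.00958, 0.0676 ± 0.0306, 0.0424 ± 0.0373 and 0.0351 ± 0.0136 CPM per kb. Neighbours in this order lay within their spread of each other, whereas Osm and Il6 differed by more than their SDs. Il18, Casp1 and Pycard were thus above the other cytokine genes and the sensor gene Nlrp3 in Plekhg5+/+ cord on this scale. Raw counts for the lowest genes were few, with 0 to 17 reads per library for Tnf and 0 to 4 for Il6, so their values carry large counting error. Il6 did not pass the filter on low counts, and 9 genes were tested.

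**Figure D1:**
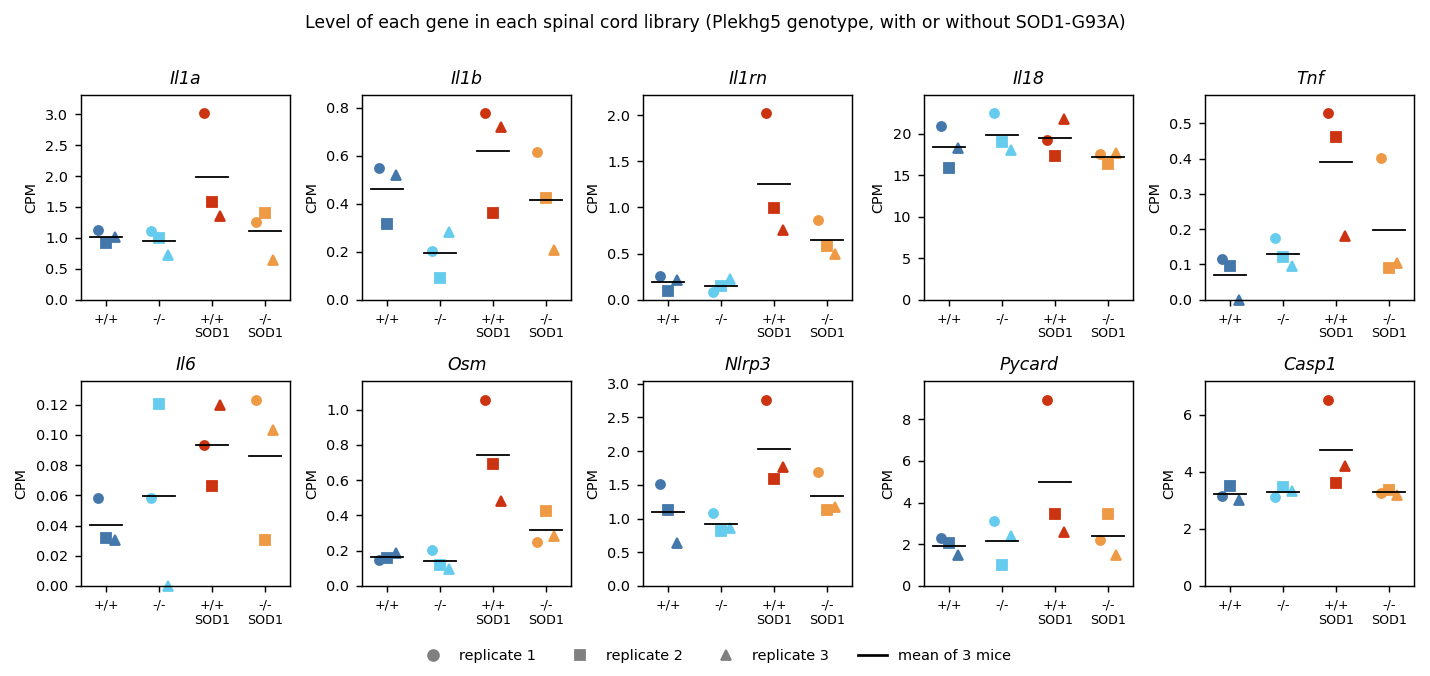
Level of each of the 10 genes in CPM (vertical axis, starting at 0 in every panel) in each of the 12 spinal cord libraries, by genotype (horizontal axis), with circles, squares and triangles for replicates 1, 2 and 3 and a line for the mean of 3 mice. Il1rn and Osm were higher in all 3 Plekhg5+/+ SOD1-G93A libraries than in any library without the transgene, and Il18 differed little between genotypes.

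The first comparison asked how the SOD1-G93A transgene altered these genes where Plekhg5 was intact. Il1rn and Osm rose, by 6.43-fold and 4.50-fold. The other 7 genes tested had estimates above 0 that did not pass the test, which was edgeR's quasi-likelihood test with Benjamini-Hochberg adjustment over 20155 genes. The 2 genes called out of 9 stand against 2.09% of all genes tested that were called higher in this comparison. Il1rn, Osm and Tnf passed the filter on low counts only through transgenic libraries. Shares out of 9, here and below, thus include genes let in by the groups where they were high. In a fit with no filter on low counts, the edgeR adjusted p was 0.00615 for Il1rn and 0.00955 for Osm.

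Il1rn (gene ID 16181, chr2:24336860-24351491, plus strand, GRCm38.p6) had 9, 3 and 7 counts in the 3 Plekhg5+/+ libraries, or 0.261, 0.0944 and 0.214 CPM. The 3 Plekhg5+/+ SOD1-G93A libraries had 65, 30 and 25 counts, or 2.02, 0.990 and 0.750 CPM. The lowest transgenic library was thus above the highest control library, and replicate 1 was the highest of its genotype. The log2 fold change was 2.69 (SE 0.463, 95% interval 1.68 to 3.69, edgeR adjusted p = 0.0153). Without replicate 1 of the Plekhg5+/+ SOD1-G93A mice it was 2.16 (edgeR adjusted p = 0.0268). Il1rn has 3 annotated starts, which yield the secreted and the intracellular forms of the antagonist, and the gene counts do not separate them.

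Osm (gene ID 18413, chr11:4236785-4241026, plus strand) encodes oncostatin M, a cytokine of the IL-6 family made by myeloid cells. It had 5, 5 and 6 counts in the Plekhg5+/+ libraries (0.145, 0.157 and 0.184 CPM) and 34, 21 and 16 counts in the Plekhg5+/+ SOD1-G93A libraries (1.06, 0.693 and 0.480 CPM). The groups did not overlap, and again replicate 1 was the highest. The log2 fold change was 2.17 (SE 0.386, 95% interval 1.34 to 3.01, edgeR adjusted p = 0.0165), and 1.83 without replicate 1 (edgeR adjusted p = 0.0470). The calls of both genes depended on the control mice and on the other genotypes in the fit. Without Plekhg5+/+ replicate 1 the edgeR adjusted p was 0.0661 for Il1rn and 0.0745 for Osm, without Plekhg5+/+ replicate 2 it was 0.0987 for both, and with only these 2 genotypes in the fit it was 0.0758 for both, with log2 fold changes between 2.10 and 2.98 throughout.

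Among the IL-1 ligands, Il1a (gene ID 16175, chr2:129299609-129310186, minus strand) was at 1.13, 0.913 and 1.01 CPM in the Plekhg5+/+ libraries and at 3.01, 1.58 and 1.35 CPM in the Plekhg5+/+ SOD1-G93A libraries. The groups did not overlap, but the log2 fold change of 0.96 (SE 0.330) did not pass the test (edgeR adjusted p = 0.143) and was 0.52 without replicate 1. Il1b (gene ID 16176, chr2:129364569-129371164, minus strand), its inflammasome-dependent relative, was at 0.551, 0.315 and 0.521 CPM in the Plekhg5+/+ libraries and at 0.777, 0.363 and 0.720 CPM with the transgene. The groups overlapped, with a log2 fold change of 0.42 (95% interval -0.49 to 1.33, edgeR adjusted p = 0.647). Il18 (gene ID 16173, chr9:50554700-50581841, plus strand), the most precisely measured of the 10 with 504 to 767 counts per library, had a log2 fold change of 0.08 (95% interval -0.17 to 0.33, edgeR adjusted p = 0.766).

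Tnf (gene ID 21926, chr17:35199367-35202007, minus strand) had 4, 3 and 0 counts in the Plekhg5+/+ libraries and 17, 14 and 6 in the Plekhg5+/+ SOD1-G93A libraries. The groups did not overlap and the log2 fold change was 2.39, but its interval was wide (0.76 to 4.03, edgeR adjusted p = 0.106). Il6 (gene ID 16193, chr5:30013114-30019975, plus strand) had 2, 1 and 1 counts without and 3, 2 and 4 counts with the transgene. All but 1 of these 6 libraries were at or under 3 counts, so no fold change is given. In a fit with no filter on low counts the edgeR adjusted p of Il6 was 0.668.

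The 3 components of the NLRP3 inflammasome all had estimates above 0 and none passed. Nlrp3 (gene ID 216799, chr11:59541569-59566955, plus strand), the sensor, was at 1.51, 1.13 and 0.643 CPM in the Plekhg5+/+ libraries and at 2.76, 1.58 and 1.77 CPM in the Plekhg5+/+ SOD1-G93A libraries, with a log2 fold change of 0.89 (SE 0.301, edgeR adjusted p = 0.134). Pycard (gene ID 66824, chr7:127991373-127993867, minus strand), the adaptor, was at 2.29, 2.05 and 1.47 CPM without and at 8.95, 3.47 and 2.61 CPM with the transgene. Replicate 1 was thus far above the other transgenic mice, and the log2 fold change of 1.37 (SE 0.501, edgeR adjusted p = 0.175) was 0.65 without it. Casp1 (gene ID 12362, chr9:5298517-5307281, plus strand), the protease, was at 3.16, 3.49 and 3.00 CPM without and at 6.52, 3.60 and 4.20 CPM with the transgene, a log2 fold change of 0.57 (SE 0.185, edgeR adjusted p = 0.124) that was 0.28 without replicate 1.

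Of the 9 genes, 7 had an unadjusted p under 0.05 in the higher direction, against 10.6% of all genes tested, and the same number, 7, had groups that did not overlap, against 11.6% of all genes tested. Their log2 fold changes had a median of 0.96, against -0.001 for all genes tested. These values include replicate 1 of the Plekhg5+/+ SOD1-G93A mice. The genes and the lists below were chosen with earlier results of these data known. These and later shares and medians therefore describe the genes and do not test a shift. For a single gene, an exact two-sided permutation test of 3 against 3 mice cannot give a p below 0.1, which each of the 7 genes reached.

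**Figure D2:**
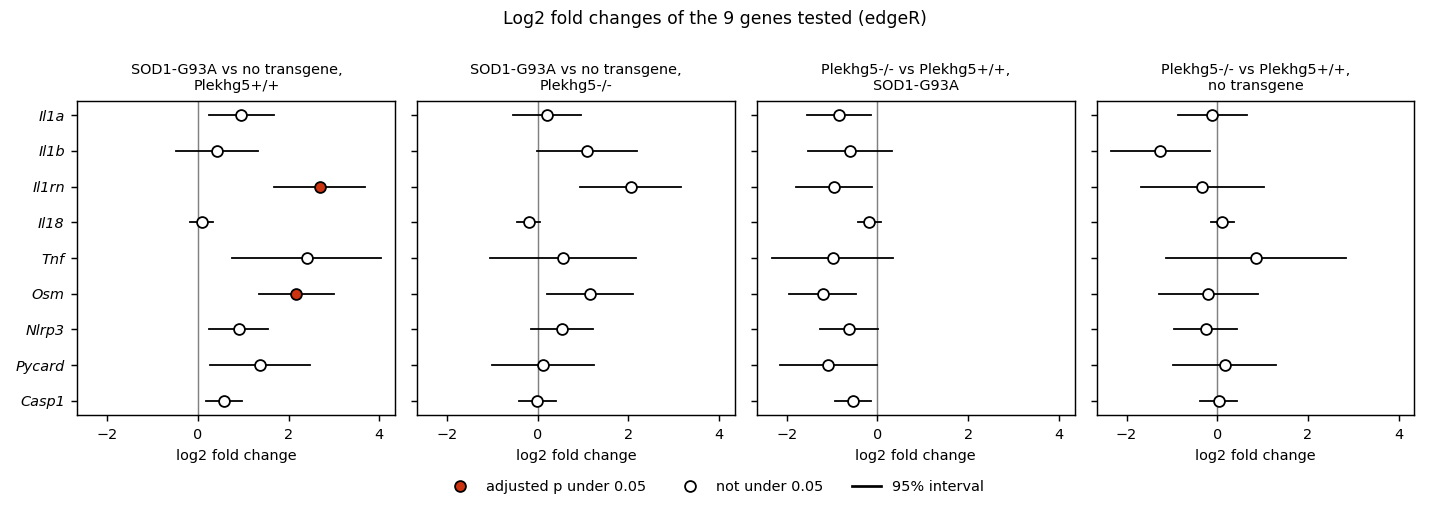
Log2 fold changes (horizontal axis) with 95% intervals of the 9 genes tested in the 4 comparisons, from edgeR. Filled points have an adjusted p under 0.05, and the 2 filled points, Il1rn and Osm, lie in the comparison of the transgene in Plekhg5+/+ mice.

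Marker genes of microglia, among the cells that make these cytokines, moved with the transgene as well. Of 12 microglial markers, headed by Csf1r, Aif1 and Itgam, 11 were called higher in Plekhg5+/+ SOD1-G93A than in Plekhg5+/+ mice, and their summed level was 979 to 1835 CPM against 519 to 600 CPM. Of 12 genes of disease-associated microglia, headed by Cst7, Itgax and Clec7a, 10 were called higher (2062 to 3796 against 1486 to 1649 CPM). Of 9 neutrophil markers, headed by S100a8, S100a9 and Ly6g, none was called by edgeR or DESeq2, 1 had an unadjusted p under 0.05 in edgeR, and the sums overlapped (45.9 to 156 against 15.2 to 73.8 CPM). Of 8 markers of border macrophages and monocytes, 1 was called higher, 6 had estimates below 0, and the sums overlapped. Of 8 astrocyte markers 2 were called higher, and their sums did not overlap, at 7368 to 10780 against 5952 to 6127 CPM. Of 8 markers of T and NK cells 3 could be tested, and none was called by edgeR or DESeq2, with 1 at an unadjusted p under 0.05 in edgeR. The sums of the 8 were low but did not overlap, at 4.14 to 4.82 against 2.37 to 2.71 CPM. None of 8 neuronal, 6 oligodendrocyte, 6 endothelial and 5 red cell markers was called by edgeR, and DESeq2 called 2, 0, 0 and 0. At an unadjusted p under 0.05 in edgeR there were 6, 2, 1 and 0. All 6 of these neuronal markers were lower, and neuronal sums were lower without overlap, at 4699 to 5624 against 5858 to 6039 CPM. The endothelial marker was also lower, with sums of 120 to 146 against 155 to 174 CPM. Of the oligodendrocyte markers 1 was higher and 1 lower. No marker of these lists was at 0 in all 3 libraries of any genotype. In RNA of whole tissue, more cells of a type and more RNA per cell cannot be told apart, and the part of microglial RNA in the results for the cytokine genes was not tested.

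**Figure D3:**
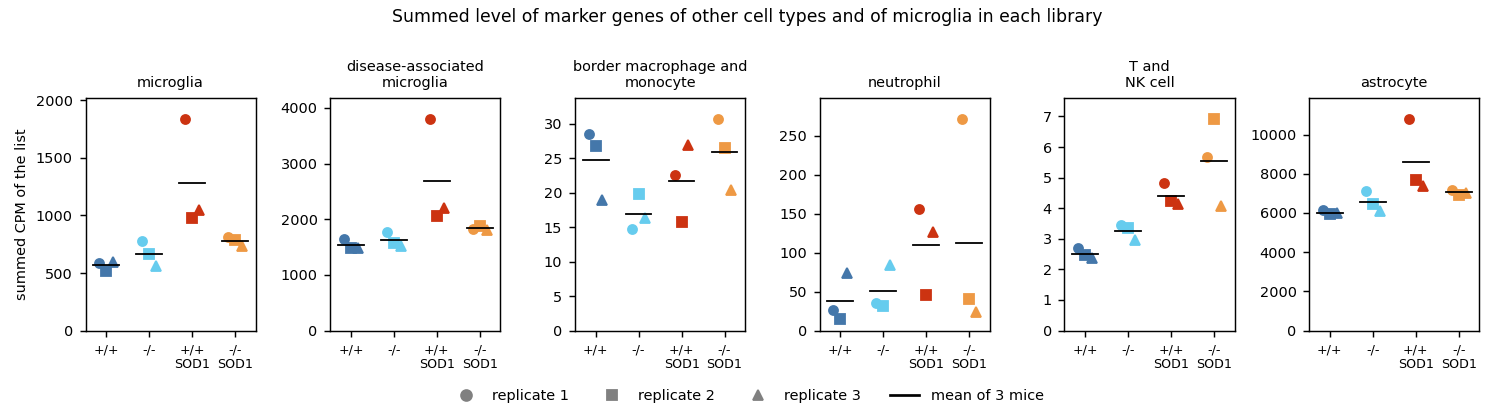
Summed CPM of 6 lists of marker genes (vertical axes, starting at 0) in each library by genotype, with circles, squares and triangles for replicates 1, 2 and 3 and lines for the mean of 3 mice. The microglial sums of the 3 Plekhg5+/+ SOD1-G93A libraries, 979 to 1835 CPM, lie above those of all other libraries. So do their sums for disease-associated microglia, 2062 to 3796 CPM, and for astrocytes, 7368 to 10780 CPM. The neutrophil sums overlap between genotypes.

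The receptors, regulators and downstream factors of these cytokines were taken from a list of 95 further genes, of which 85 were tested. With the transgene in Plekhg5+/+ mice 10 of the 85 were called, against 2.47% of all genes tested; 9 rose, against 2.09%, and 1 fell, against 0.377%. The list, chosen with earlier results of these data known, had a median log2 fold change of 0.21. In the inflammasome and pyroptosis group 4 of 18 rose: Naip2 (log2 fold change 1.60) and Naip6 (1.07), sensors of bacterial proteins, Casp8 (0.87), a protease of cell death and of cytokine processing, and Ctsb (0.56), a lysosomal protease. Naip2 and Naip6 are paralogs of 1 gene family, with counts that were fractions in 10 and 12 of 12 libraries, so their separate values are uncertain. In the TNF group 2 of 13 rose, the receptor gene Tnfrsf1a (0.83) and Tnfaip8l2 (1.08), a dampener of immune activation. Among anti-inflammatory cytokines and receptors 2 of 6 rose, Tgfb1 (1.04) and the IL-10 receptor gene Il10ra (0.86). Of 15 genes of the IL-6 family and its receptors Lifr (-0.36), a receptor subunit, fell, the single gene of the list that did so. Of 10 IL-1 family receptors and regulators 1 rose, the alarmin gene Il33 (0.44). None of the 10 genes of IL-1 and Toll-like receptor signalling and none of the 13 NF-kB factors and inhibitors was called by edgeR or DESeq2, and 3 in each group had an unadjusted p under 0.05 in edgeR. Without Plekhg5+/+ replicate 1 or 2, none of the 85 was called, without Plekhg5+/+ SOD1-G93A replicate 1 there were 6, and the count with only these 2 genotypes in the fit was 0.

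The direct receptors of the cytokines mostly showed no change that passed the test. Il1r1, the signalling receptor of both IL-1 ligands and of the antagonist, had a log2 fold change of -0.10 (95% interval -0.54 to 0.33, edgeR adjusted p = 0.838), and its partner chain Il1rap -0.12 (-0.27 to 0.03, edgeR adjusted p = 0.382). The decoy receptor gene Il1r2 was at -0.07 and the IL-18 binding protein gene Il18bp at -0.16, with edgeR adjusted p of 0.928 and 0.755. Tnfrsf1b, the other TNF receptor gene, was at 0.69 (edgeR adjusted p = 0.0816), Osmr at 0.70 (0.325), Il6ra at 0.26 (0.350) and Il6st at 0.05 (0.806). Il18r1 had 1 to 7 counts per library and was not tested.

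**Figure D4:**
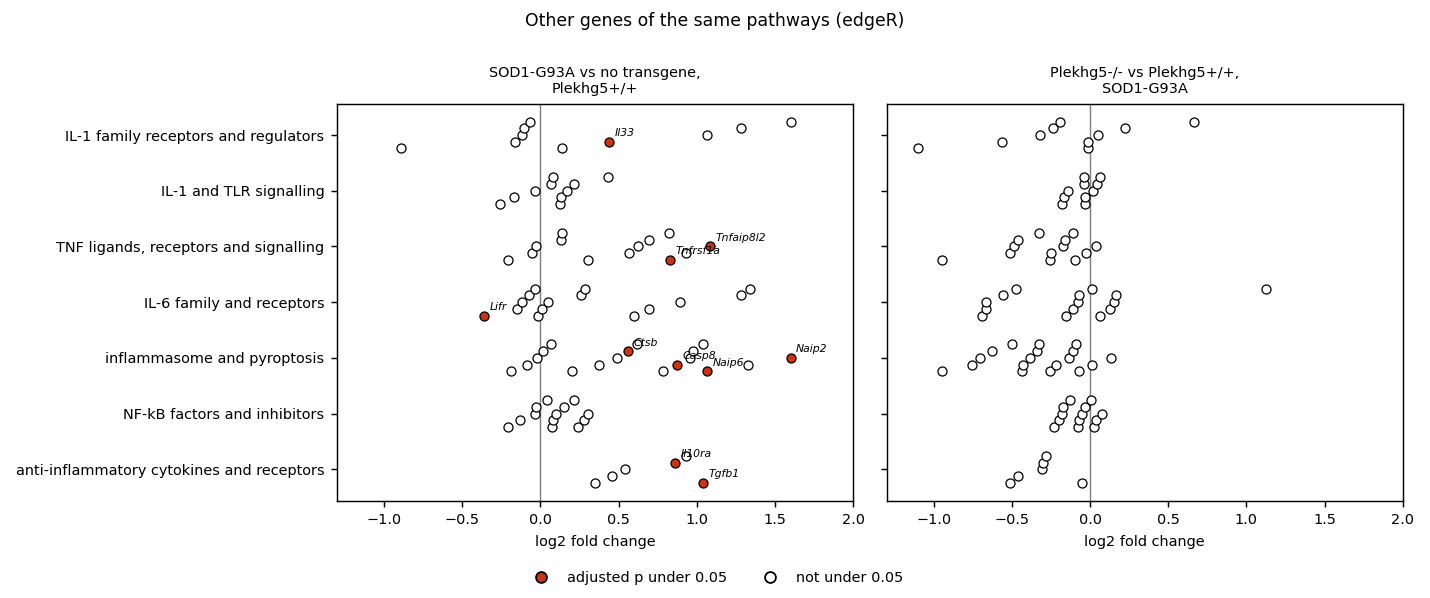
Log2 fold changes (horizontal axis) of the 85 further genes tested, in 7 groups (vertical axis), for the transgene in Plekhg5+/+ mice on the left and for Plekhg5 loss in SOD1-G93A mice on the right, from edgeR. Filled points with names have an adjusted p under 0.05: 10 on the left, of which Lifr alone lies below 0, and none on the right.

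The comparison of Plekhg5-/- SOD1-G93A with Plekhg5+/+ SOD1-G93A mice asked whether loss of Plekhg5 altered these genes in cord carrying the transgene. It shares the Plekhg5+/+ SOD1-G93A libraries with the first comparison, replicate 1 included, so opposite signs in the pair of comparisons are not independent. All 9 genes had lower estimates without Plekhg5, and edgeR called 0 of 9, against 0.0347% of all genes tested. DESeq2 also called 0. Of the 9, 5 (Il1rn, Il1a, Osm, Pycard and Casp1) had an unadjusted p under 0.05 in the lower direction, against 5.05% of all genes tested. Their median log2 fold change was -0.86, against -0.01 for all genes tested.

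Osm had 8, 14 and 11 counts in the Plekhg5-/- SOD1-G93A libraries (0.247, 0.425 and 0.285 CPM), below every Plekhg5+/+ SOD1-G93A library. Its log2 fold change was -1.21 (95% interval -1.95 to -0.47, edgeR adjusted p = 0.402), the lowest adjusted p of the 9, and -0.87 without Plekhg5+/+ SOD1-G93A replicate 1. Casp1 was at 3.27, 3.37 and 3.19 CPM, also below every Plekhg5+/+ SOD1-G93A library and inside the 3.00 to 3.49 CPM of the Plekhg5+/+ libraries. Its log2 fold change was -0.54 (95% interval -0.95 to -0.14, edgeR adjusted p = 0.502), and -0.25 without replicate 1. These 2 of 9 genes with groups that did not overlap stand against 10% of all genes tested that were lower in this way.

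Il1rn was at 0.864, 0.577 and 0.492 CPM in the Plekhg5-/- SOD1-G93A libraries, which overlapped the Plekhg5+/+ SOD1-G93A libraries but lay above all libraries without the transgene. Its log2 fold change of -0.97 (95% interval -1.80 to -0.13, edgeR adjusted p = 0.526) was -0.44 without replicate 1. Il1a was at 1.26, 1.40 and 0.647 CPM and Pycard at 2.19, 3.43 and 1.50 CPM, and both overlapped their Plekhg5+/+ SOD1-G93A values. The log2 fold changes were -0.86 for Il1a (edgeR adjusted p = 0.517) and -1.08 for Pycard (0.577), and -0.42 and -0.36 without replicate 1. Tnf had 13, 3 and 4 counts and Nlrp3 was at 1.70, 1.12 and 1.17 CPM, with log2 fold changes of -0.98 (95% interval -2.32 to 0.35) and -0.62 (-1.26 to 0.01). Without Plekhg5+/+ SOD1-G93A replicate 1 the estimate of Nlrp3 was -0.34. Without Plekhg5-/- SOD1-G93A replicate 1, the library with 13 counts of Tnf, that of Tnf was -1.93 and that of Il1b -0.98. At the other end, Tnf was at -0.65 and Il1b at -0.255 without Plekhg5-/- SOD1-G93A replicate 3. Plekhg5-/- SOD1-G93A replicate 1 also stood apart in summed neutrophil markers, at 271 CPM against 40.2 and 23.9 CPM. Its summed border macrophage and monocyte markers were at 30.7 CPM, against 26.6 and 20.5 CPM. The part of these cells in the Tnf values was not tested. Il1b (-0.60, interval -1.52 to 0.32) and Il18 (-0.18, interval -0.43 to 0.08) had the largest unadjusted p of the 9, 0.179 and 0.155 in edgeR. The intervals still allow a large decrease for most of the genes, so that the missing calls do not show equal levels.

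The mean of the Plekhg5-/- SOD1-G93A mice lay between those of the Plekhg5+/+ and the Plekhg5+/+ SOD1-G93A mice for 8 of the 10 genes, the exceptions being Il1b and Il18. The summed microglial markers were lower as well, at 730 to 813 CPM against 979 to 1835 CPM, with 0 of 12 called and 11 of 12 at an unadjusted p under 0.05 in edgeR, while DESeq2 called 0 without and 2 with a prior on fold changes. The genes of disease-associated microglia were at 1804 to 1884 CPM against 2062 to 3796 CPM, with 9 of 12 at an unadjusted p under 0.05 and 0 called in edgeR, and 2 and 5 called by DESeq2 without and with a prior. Markers of other cells also differed at an unadjusted p, although edgeR called none of them and DESeq2 only 1, an endothelial gene, with a prior. Endothelial markers had higher estimates, with sums of 166 to 216 against 120 to 146 CPM and 5 of 6 at an unadjusted p under 0.05 in edgeR. Of the neuronal markers 4 of 8 had such a p in the higher direction, and 5 of 5 red cell, 2 of 8 astrocyte and 1 of 6 oligodendrocyte markers in the lower direction. The part of these shifts in the values of the cytokine genes was not tested. Human SOD1 itself was at 4993 ± 612 CPM (SD, n = 3) in Plekhg5+/+ SOD1-G93A and 5001 ± 97.1 CPM in Plekhg5-/- SOD1-G93A mice. Of the 85 further genes, edgeR called 0, with 15 lower and 1 higher at an unadjusted p under 0.05. Their median log2 fold change was -0.15. DESeq2 without a prior called 0, and with a prior on fold changes 1, Tnfaip8l2, which had an edgeR log2 fold change of -0.95 (adjusted p = 0.402).

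Loss of Plekhg5 without the transgene was examined in Plekhg5-/- against Plekhg5+/+ mice. EdgeR and DESeq2 called 0 of the 9 genes, against 0.0298% of all genes tested by edgeR. Il1b was the single gene with an unadjusted p under 0.05, lower in Plekhg5-/- mice, against 2.79% of all genes tested. It had 7, 3 and 9 counts in the Plekhg5-/- libraries (0.205, 0.0904 and 0.284 CPM), below each of the Plekhg5+/+ libraries with 19, 10 and 17 counts. The log2 fold change was -1.26 (95% interval -2.34 to -0.17, edgeR adjusted p = 0.929). It was 1 of 9 genes lower without overlap, against 4.03% of all genes tested. The remaining 8 log2 fold changes lay between -0.33 (Il1rn) and 0.86 (Tnf), with a median of -0.11 over the 9 genes. Il18 (0.11, 95% interval -0.14 to 0.36) and Casp1 (0.03, -0.38 to 0.44) had the narrowest intervals, while that of Tnf, with 3 to 6 counts in each Plekhg5-/- library, reached from -1.14 to 2.85. Of 8 markers of border macrophages and monocytes 7 had estimates below 0 and 1 above. EdgeR called 0 of these markers, with 2 lower at an unadjusted p under 0.05. Their sums overlapped, at 14.8 to 19.8 against 18.95 to 28.6 CPM. The part of these cells in the Il1b values was not tested. EdgeR called 0 of the 85 further genes, with 5 lower and 1 higher at an unadjusted p under 0.05, and DESeq2 called 0.

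The effect of the transgene in mice without Plekhg5 was taken from Plekhg5-/- SOD1-G93A against Plekhg5-/- mice. EdgeR again called 0 of 9, against 0.00496% of all genes tested, and DESeq2 called 0 of the 8 to which it gave an adjusted p without a prior and 0 of 9 with one. Il1rn and Osm had an unadjusted p under 0.05 in the higher direction, against 3.27% of all genes tested. Il1rn had 3, 5 and 7 counts in the Plekhg5-/- libraries and 28, 19 and 19 in the Plekhg5-/- SOD1-G93A libraries, which did not overlap. The log2 fold change was 2.05 (95% interval 0.93 to 3.17, edgeR adjusted p = 0.489). Osm had 7, 4 and 3 counts against 8, 14 and 11, a log2 fold change of 1.15 (95% interval 0.19 to 2.11, edgeR adjusted p = 0.840). Nlrp3 was also higher without overlap (log2 fold change 0.53, edgeR adjusted p = 0.950), so that 3 of 9 genes were higher in this way, against 7.26% of all genes tested. Il18 was lower without overlap (log2 fold change -0.20, edgeR adjusted p = 0.950), against 5.24% of all genes tested. Casp1 (-0.01) and Pycard (0.12) lay near 0, Il1b (1.08) had an edgeR interval from -0.03 to 2.18, and the median of the 9 was 0.53. The microglial marker sums overlapped in this comparison, at 730 to 813 against 560 to 778 CPM, with 0 of 12 called by edgeR or DESeq2 and 1 at an unadjusted p under 0.05 in edgeR. The sums of the disease-associated microglia genes did not overlap, at 1804 to 1884 against 1527 to 1780 CPM, and 9 of these 12 genes were higher without overlap. EdgeR called 0 of them, with 5 at an unadjusted p under 0.05, and DESeq2 called 1 without and 0 with a prior. Of the 3 T and NK cell markers tested, 2 had an unadjusted p under 0.05 in edgeR, and edgeR and DESeq2 called 0. The sums of the 8 markers of these cells did not overlap, at 4.07 to 6.91 against 2.97 to 3.44 CPM. All 8 border macrophage and monocyte markers had estimates above 0. Their sums did not overlap, at 20.5 to 30.7 against 14.8 to 19.8 CPM. EdgeR and DESeq2 called 0 of them, with 2 at an unadjusted p under 0.05 in edgeR. Endothelial (2 of 6) and astrocyte (1 of 8) markers had such a p in the higher direction, and oligodendrocyte markers (3 of 6) in the lower. The part of these cells in the values of Il1rn, Osm and Il1b was not tested. Of the 85 further genes edgeR called 0, with 10 higher and 2 lower at an unadjusted p under 0.05, and DESeq2 called 0.

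Whether the response to the transgene differed with Plekhg5 was tested by the interaction term. EdgeR called 0 of 9 genes and 0% of all genes tested, and DESeq2 called 0 of the 7 genes to which it gave an adjusted p without a prior and 0 of 6 with one. Casp1 was the single gene with an unadjusted p under 0.05 (interaction -0.58, 95% interval -1.15 to -0.01, edgeR adjusted p = 0.542), against 5.18% of all genes tested in this direction. Interaction estimates were below 0 for 8 of 9 genes, with a median of -0.64. The widest was that of Tnf (-1.84, interval -4.23 to 0.55), and the estimates of Il1rn (-0.64, interval -2.24 to 0.97) and Osm (-1.02, interval -2.35 to 0.31) included 0. Without Plekhg5+/+ SOD1-G93A replicate 1 several estimates were nearer to 0, at -0.29 for Casp1, -0.11 for Il1rn, -0.31 for Il1a and -0.53 for Pycard, the last 2 from -0.75 and -1.25. The estimate of Tnf ranged from -2.78 without Plekhg5-/- SOD1-G93A replicate 1 to -1.27 without Plekhg5+/+ replicate 3. Of the 12 microglial markers 11, and of the 12 genes of disease-associated microglia likewise 11, had an unadjusted p under 0.05 for a lower interaction in edgeR, with lowest adjusted p of 0.387 and 0.375. So had 3 of 6 oligodendrocyte and 2 of 8 astrocyte markers. For a higher interaction, 3 of 8 border macrophage and monocyte and 3 of 6 endothelial markers had such a p. A difference in response between the Plekhg5 genotypes was therefore not detectable for the 9 cytokine and inflammasome genes at this depth and number of mice. Of the 85 further genes edgeR called 0, with 10 lower and 3 higher at an unadjusted p under 0.05. DESeq2 without a prior called 2, Il33 and Lifr, and with a prior 3, these and Il10ra.

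Since the antagonist and its competing ligands bind 1 receptor, the counts of Il1rn were also set against the sum of Il1a and Il1b in each library. This ratio was chosen after the values had been seen and is not corrected for gene length. It was 0.155, 0.0769 and 0.140 in Plekhg5+/+ mice, 0.0667, 0.139 and 0.219 in Plekhg5-/- mice, 0.533, 0.509 and 0.362 in Plekhg5+/+ SOD1-G93A mice, and 0.459, 0.317 and 0.576 in Plekhg5-/- SOD1-G93A mice. All 6 transgenic libraries were above all 6 libraries without the transgene. The mean ratio was 3.77-fold higher with the transgene in Plekhg5+/+ and 3.19-fold higher in Plekhg5-/- mice, each with an exact two-sided permutation p of 0.1, the smallest that 3 against 3 mice can give. Between the transgenic genotypes it was 0.468 ± 0.0922 and 0.451 ± 0.130 (SD, n = 3; exact permutation p = 0.8). Replicate 1 of the Plekhg5+/+ SOD1-G93A mice, which was high in Il1rn and Il1a, and in Il1b close to replicate 3, did not stand apart in this ratio.

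**Figure D5:**
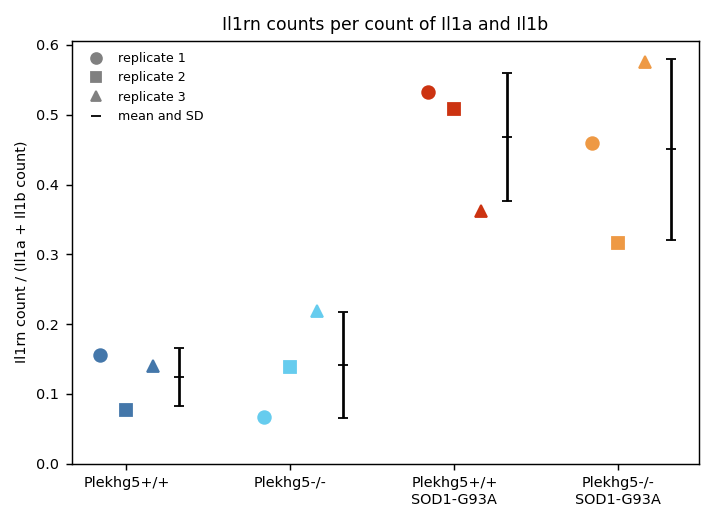
Counts of Il1rn divided by the summed counts of Il1a and Il1b (vertical axis, no unit, starting at 0) in each library by genotype, with circles, squares and triangles for replicates 1, 2 and 3 and bars for the mean and SD of 3 mice. The 6 transgenic libraries lie between 0.317 and 0.576, and the 6 others between 0.0667 and 0.219.

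For each of the 9 genes tested, the genes with the most similar log2 CPM over the 12 libraries were listed by Pearson correlation, as a description. The 12 points share 4 genotypes and 1 library with high microglial transcripts, so r without that library (11 libraries) is given as well. Il1rn was closest to Cst7 (r = 0.966, and 0.950 over 11), a protease inhibitor of disease-associated microglia, then to Lyz2, the lysozyme of myeloid cells, and Csf2rb, a receptor chain for GM-CSF. Osm was closest to Tbxas1 (0.968 and 0.951), C3ar1, the receptor of complement C3a, and Bcl2a1d. Nlrp3 was closest to Cd300a (0.975 and 0.958), a myeloid inhibitory receptor, then to Hsp25-ps1 and Pxdc1. Il1a was closest to Ifi211 (0.941 and 0.879), Fcgr1 and Dok1, and Il1b to Tlr8 (0.878 and 0.852), Ms4a4c and Trpv4. Casp1 was closest to Gm6548 (0.963 and 0.872), Trim34a (0.959 and 0.745) and Plscr2. Pycard was closest to 1700017B05Rik (0.909 and 0.781), Fam3a and Snx5. Casp1 and Pycard had larger losses on leaving out that library. Tnf was closest to Mcm6 (0.910 and 0.886), a gene of DNA replication, with Pimreg and Gtse1 next. Il18 was closest to 2010320M18Rik (0.967 and 0.967), then to Gm4786 and Tmem258. Its correlations with the other 8 genes lay between -0.085 and 0.188, and between -0.173 and 0.165 over 11 libraries. Pairs among the other 8 lay between 0.267 (Il1b and Tnf) and 0.858 (Il1rn and Osm). Over 11 libraries these 2 pairs were at 0.082 and 0.779. Il18 thus stood apart over 12 libraries, whereas over 11 Il1b and Tnf lay inside its range.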

How the data were processed

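Total RNA of the spinal cord of 12 mice was prepared by the authors with a stranded poly-A kit, and reads were trimmed with cutadapt 2.4, mapped to GRCm38.p6 plus the human SOD1 cDNA with STAR 2.7.2b and counted over RefSeq exons with featureCounts 1.6.4, per the study's methods. The deposited values are estimated counts: reads that map to several places or genes were split into fractions, so these counts need not be whole and paralogs can share reads. Counts of the 10 genes described were whole in all libraries. The exon length of each gene was deposited beside the counts, and 0 columns of values were left unmapped.

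Counts were rounded and fitted in edgeR 4.0.16 (R 4.3.3) with TMM scaling, its default filter on low counts and the quasi-likelihood test over all 4 genotypes. Adjusted p under 0.05 was called, over 20155 genes. DESeq2 1.42.0, other filters, scaling, thresholds, blocks, a Y-linked covariate and leaving out each library were alternatives. The fits were tested on simulated data. Replicates of 1 genotype differed by more than sampling noise. Whether the mice were littermates is not given in the sources used here. CPM used TMM-scaled library sizes. Figures were drawn with matplotlib 3.10.9.

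The members, the pathway and marker lists were chosen with earlier results of these data known. 1 gene of the pathway list is not reported here and is left out of its counts. All members were named, of the pathway list the called genes (the 10 with the largest change where more were called) plus the receptors, of marker lists the first 3 genes, and for likeness the 3 closest genes. Replicate numbers name different mice. Promoter sequences are from RefSeq, GRCm38.p6. The 95% intervals were taken from the standard errors of the edgeR fit, which include the spread between mice.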

Additional observations from a re-analysis of the deposited data

How the results depend on the processing

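The number of the 10 genes called for the transgene in Plekhg5+/+ mice was 2 in the fit reported. It was 0 with at least 10 counts required in every library, where 5 genes remained and Il1rn and Osm were not among those tested, and 0 with only the 2 genotypes in the fit, which has fewer samples. It was 2 with DESeq2 and 3 with a prior on its fold changes (adding Pycard), and 0 to 3 on leaving out 1 library, with 0 without Plekhg5+/+ replicate 1 or 2 and 3 without Plekhg5+/+ SOD1-G93A replicate 2 (adding Casp1). In the other 4 comparisons it was 0 under every setting run. Of the further pathway genes, 10 were called for the transgene in Plekhg5+/+ mice, 18 with DESeq2 with or without a prior, 16 at an adjusted p under 0.1, 0 with only the 2 genotypes and 0 to 15 on leaving out 1 library. With DESeq2, 1 was called for Plekhg5 loss in SOD1-G93A mice with a prior, and 2 and 3 for the interaction without and with a prior. Where the settings differed, the cause was not tested unless stated.

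Over all genes, the 498 calls for the transgene in Plekhg5+/+ mice were 1162 and 1199 with DESeq2 without and with a prior, 3 with only the 2 genotypes, 1145 at an adjusted p under 0.1 and 2 to 771 on leaving out 1 library. For Plekhg5 loss in SOD1-G93A mice 7 became 72 and 112 with DESeq2, 11 with only the 2 genotypes and 4 to 8 on leaving out 1 library. For Plekhg5 loss without the transgene 6 became 34 and 32, and 5 to 59 on leaving out 1 library. For the transgene in Plekhg5-/- mice 1 became 45 and 41, 0 with 10 counts in every library, 20 with only the 2 genotypes and 1 to 9 on leaving out 1 library. For the interaction 0 became 95 and 114, 1 with no filter, and 0 to 40 on leaving out 1 library.

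With the replicate number as a block, 4 of the 10 genes were called for the transgene in Plekhg5+/+ mice (Il1rn, Osm, Nlrp3 and Tnf). The numbers name different mice, and deviations of mice with the same number correlated at -0.109 to 0.318, with no comparison in which every pair was over 0.1, so the numbers were not taken as pairs.

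Of 864 single log2 fold changes of the 9 genes under an alternative, 838 kept their direction with no change of call (some DESeq2 estimates had no adjusted p), 6 lost and 4 gained a call, and 16 changed sign, all of them not called. On leaving out 1 library those ranged from -0.014 to 0.19 for Il18 with the transgene in Plekhg5+/+ mice. For Plekhg5 loss without the transgene they ranged from -0.24 to 0.047 (Il1a), -0.57 to 0.011 (Osm), -0.53 to 0.049 (Nlrp3), -0.19 to 0.51 (Pycard) and -0.02 to 0.10 (Casp1). For the transgene in Plekhg5-/- mice they ranged from -0.001 to 0.49 (Il1a), -0.41 to 0.88 (Tnf), -0.24 to 0.47 (Pycard) and -0.058 to 0.03 (Casp1), where Casp1 was also 0.041 with a covariate for Y-linked transcripts. The Il1rn ratio, an alternative added after seeing the data, stayed between 1.33 and 2.13 on the log2 scale for the transgene in either Plekhg5 genotype on leaving out 1 library. With 3 mice per genotype and under 20 reads per library for Il1rn, Osm and Tnf in controls, precision is limited by counting error. Differences between mice beyond sampling noise limit it as well.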
